A study of Mus musculus with 9 samples.

Results

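The 10 genes described here, of the stellate cell and of the fibrous matrix of the liver, were taken from a table of 24341 genes by name: the fibrillar collagen genes Col1a1, Col1a2, and Col3a1, the matrix glycoprotein genes Fn1 and Tnc, the collagen cross-linking enzyme gene Lox, the contractile and filament genes Acta2 and Des, the growth factor gene Tgfb1, and the growth factor receptor gene Pdgfrb. The rule that picks them uses their names and no measured value. They were followed by mRNA sequencing of whole liver from 9 wild-type (WT) C57BL/6 mice (C57BL/6J in the methods of the study), collected at 48 hours. Anti-CD40, here FGK45, an agonist antibody that activates the receptor CD40, had been given to 3 mice (2, 5, and 9), and PBS to 6 control mice (3, 4, 7, 8, 11, and 12). Mice in the study were sex-matched young adults unless otherwise stated, came from a vendor or from in-house breeding, and in some experiments carried a Cre driven by the Pdx promoter. The sample labels do not give the age, sex, or source of each of these 9 mice. Across its experiments, the study left out anti-CD40-treated mice that failed to show the usual systemic response, and whether any were left out here is not given. In RNA from a whole organ, a change in the number of cells of a type and a change in RNA per cell cannot be told apart.

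Hepatic stellate cells lie between hepatocytes and sinusoidal endothelium. In the resting state, they store vitamin A as retinyl esters. After liver injury they can become myofibroblasts, which lose retinoid stores, gain the PDGF receptor beta, and lay down fibrillar collagen, and TGF-beta and PDGF are the classic ligands that drive these changes. Type I collagen is a heteromer of the Col1a1 and Col1a2 chains, type III collagen is a homomer of the Col3a1 chain, and lysyl oxidase, the Lox product, cross-links both outside the cell. Fibronectin is not a stellate cell product alone, since hepatocytes secrete it into plasma. Acta2, Des, and Pdgfrb are also expressed in vascular smooth muscle or pericytes.

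Values are FPKM, a read level scaled to transcript length and to the mapped reads of a library. Libraries were read from the 3′ end of transcripts, where division by transcript length makes the levels of different genes not comparable. Levels are thus compared only between mice, within a gene or over a fixed set of genes. Differences are log2 fold changes of anti-CD40 over control on log2(FPKM + 0.1), tested with limma (2-sided, Benjamini-Hochberg adjustment over the 13807 genes whose FPKM averaged 0.1 or more). A gene was called at an adjusted p under 0.05. Much of the liver transcriptome was called in these mice. Of all genes tested, 23.5% were called higher and 21.7% lower with anti-CD40, and the 2 groups did not overlap, with anti-CD40 higher, in 22.7% and, with anti-CD40 lower, in 19.6%.

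Of the 9 stellate and matrix genes that passed the filter on mean FPKM, 7 were higher with anti-CD40, beside the 23.5% of all genes that were called higher, and the groups of mice did not overlap for any of the 7, beside 22.7% of all genes. These were Col1a1, Col1a2, Col3a1, Fn1, Tnc, Lox, and Pdgfrb. By limma, 0 of the 9 were lower, at an adjusted p under 0.05 or at an unadjusted p under 0.05. Acta2 and Des were not called, and Tgfb1 was too low to be tested. The median log2 fold change of the 9 genes was 1.1, beside 0.0056 over all genes tested. In the exact permutation test over the 84 ways to choose 3 of the 9 mice (2-sided), each of the 7 genes gave an unadjusted p = 0.0238, the smallest that the design allows. Groups that do not overlap always give this p, so it adds nothing to the lack of overlap.

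**Figure D1:**
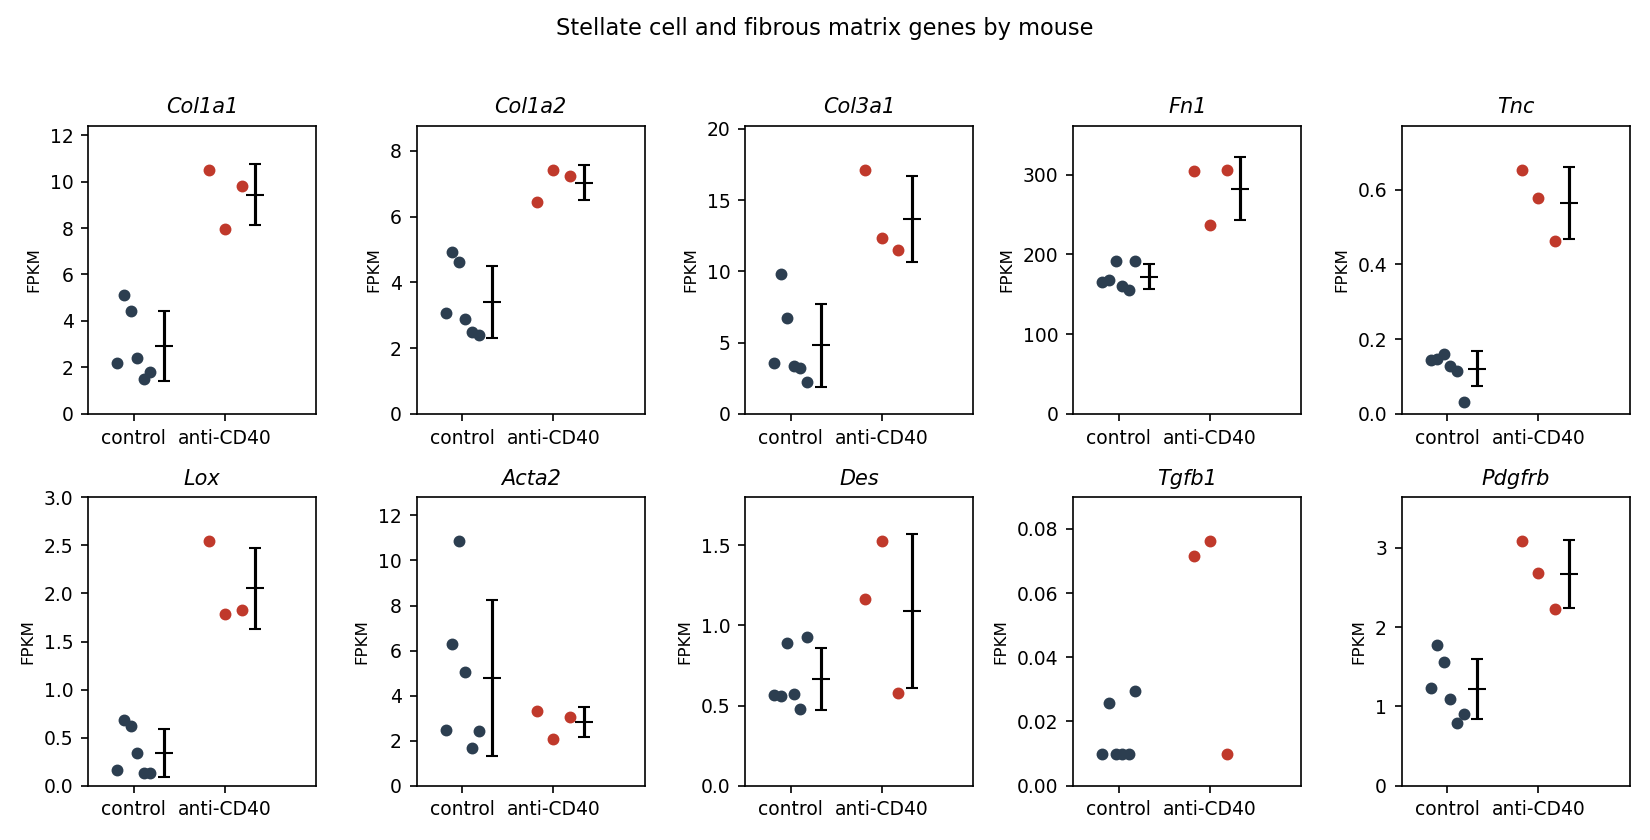
FPKM of each of the 10 genes in each mouse, with 6 control mice (dark points) and 3 anti-CD40 mice (red points). The black mark and bar give the mean ± SD and are left out for groups with a mouse at the lowest value of the table, and each vertical axis starts at 0. For Col1a1, Col1a2, Col3a1, Fn1, Tnc, Lox, and Pdgfrb all 3 anti-CD40 mice lie above all 6 control mice, whereas the groups overlap for Acta2, Des, and Tgfb1.

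The upstream sequences of 4 of the 10 genes are shown here. Of these, Col3a1 and Tnc rose, Des was not called, and Tgfb1 could not be tested. Entries of 6 of the 10 genes in the RefSeq promoter table (GRCm38.p6, the assembly of mm10) were examined. Upstream sequences of the other genes were not examined, whether or not the promoter table lists them. Shown are the 150 bases that end just before the annotated start, 5′ to 3′ on the strand of the gene, for entries whose 150 bases hold no annotated exon of the same gene. Capitals mark matches on either strand to the TATA box core TATAA, the CAAT box spelled CCAAT, the GC box spelled GGGCGG, the AP-1 motif spelled TGANTCA, the SMAD motif spelled CAGAC, or the CArG box, and overlapping matches run together.
Col3a1, chr1:45311388-45311537, plus strand: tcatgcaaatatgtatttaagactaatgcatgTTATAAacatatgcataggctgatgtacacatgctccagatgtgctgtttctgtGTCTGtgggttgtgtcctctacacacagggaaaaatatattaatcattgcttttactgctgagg
Tnc, chr4:64047016-64047165, minus strand: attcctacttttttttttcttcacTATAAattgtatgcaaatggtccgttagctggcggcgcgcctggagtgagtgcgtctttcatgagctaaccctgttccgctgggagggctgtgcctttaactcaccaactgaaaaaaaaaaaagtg
Des, chr1:75360142-75360291, plus strand: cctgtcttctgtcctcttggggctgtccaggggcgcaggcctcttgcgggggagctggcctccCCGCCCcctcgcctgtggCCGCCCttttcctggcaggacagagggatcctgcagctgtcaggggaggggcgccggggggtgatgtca
Tgfb1, chr7:25686852-25687001, plus strand: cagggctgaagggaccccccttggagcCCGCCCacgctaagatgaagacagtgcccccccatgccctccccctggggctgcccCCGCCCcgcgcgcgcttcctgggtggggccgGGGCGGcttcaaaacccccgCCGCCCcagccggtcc

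G and C made up 37.3% of the Col3a1 bases, 44.7% of the Tnc bases, 70.7% of the Des bases, and 76.0% of the Tgfb1 bases. The windows not printed, since they hold an exon, had 62.7% for Col1a2, which rose, 54.7% for Acta2, which was not called, and 51.3% for a second annotated Tnc start, so genes that rose and genes that were not called overlapped in base composition. The TATA box core matched in Col3a1 and Tnc, at 117 and 126 bases before the start, and is held by 14.2% of the 32851 promoters of the table over the same 150 bases. The GC box matched 2 times in Des and 4 times in Tgfb1, and is held by 28.6% of promoters. The SMAD motif matched once in the printed windows, in Col3a1, and is held by 27.7%. Of the windows not printed, that of the second Tnc start held the TATA box core, at 27 bases before the start, and the SMAD motif, and that of Col1a2 held the CAAT box. The CAAT box (24.5% of promoters), the AP-1 motif (4.24%), and the CArG box (0.916%) had no match in these 4 windows, which says only that these letters are not there. A match of letters is a description, and with 4 genes no relation to the response was tested.

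The fibrillar collagens among the 10 genes rose together. Col1a1 (chr11:94936270-94951856), which encodes the alpha 1 chain of type I collagen, had FPKM of 10.5, 7.98, and 9.83 in anti-CD40 mice 2, 5, and 9, and in the control mice had a lowest value of 1.52, a median of 2.31, and a highest of 5.14. The lowest treated mouse was thus above the highest control mouse, and the mean was 9.44 ± 1.31 (SD, n = 3) against 2.92 ± 1.50 (SD, n = 6), or 3.23-fold higher. The log2 fold change was 1.79 ± 0.36 (SE, limma adjusted p = 0.0022).

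Col1a2 (chr6:4505697-4541543), the gene of the alpha 2 chain, had FPKM of 6.43, 7.43, and 7.24 in mice 2, 5, and 9, against a control range of 2.41 to 4.94 with a median of 2.98. The anti-CD40 mice lay close to each other and above every control mouse. The mean was 2.07-fold higher, with a log2 fold change of 1.08 ± 0.24 (SE, limma adjusted p = 0.0039).

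Col3a1 (chr1:45311538-45349706), the gene of type III collagen, had FPKM of 17.1, 12.4, and 11.5 in mice 2, 5, and 9. Control mice ranged from 2.21 to 9.84 with a median of 3.44. This was the collagen for which a control mouse, mouse 4, came nearest to the treated group. The mean was 2.84-fold higher and the log2 fold change 1.65 ± 0.41 (SE, limma adjusted p = 0.0073).

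The Col1a1 level divided by the Col1a2 level in the same mouse was between 0.606 and 1.04 in the control mice and was 1.63, 1.07, and 1.36 in mice 2, 5, and 9. Only the comparison of this ratio between mice can be read, since each gene carries its own length, and the difference was not tested. The deposited position of Col1a1 ends 1186 bases before the 3′ end that GENCODE M21 annotates, so reads from the distal end may not have been counted for Col1a1. That limit is the same in every mouse only if the groups use the same transcript ends, which was not tested.

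Within the control group, the collagens varied together. Over the 6 control mice, Col1a1 and Col1a2 gave Pearson's r = 0.981 (exact permutation p = 0.0139, adjusted over 3 pairs 0.0208) and Spearman's rho = 0.886 (p = 0.0333, adjusted 0.0333, exact permutation). Col1a1 and Col3a1 gave r = 0.931 (exact permutation p = 0.0306, adjusted 0.0306) and rho = 0.886 (p = 0.0333, adjusted 0.0333). Col1a2 and Col3a1 gave r = 0.970 and rho = 1.0 (both exact permutation p = 0.0028, adjusted 0.0083). Without mice 4 and 7, the 2 farthest from the median, r over the other 4 mice was 0.806, 0.360, and 0.784, so that the relation of Col1a1 with Col3a1 rested on those 2 mice.

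Of the matrix glycoproteins, Fn1 had the smallest fold change of the 7 and the least spread among control mice. Fn1 (chr1:71585473-71653234), the fibronectin gene, had FPKM of 304.9, 236.7, and 306.5 in mice 2, 5, and 9, against 154.9 to 191.6 with a median of 166.7 in control mice. The groups did not overlap, and the control values had a coefficient of variation of 9.17%, against 51.2% for Col1a1. The mean was 1.64-fold higher, with a log2 fold change of 0.71 ± 0.12 (SE, limma adjusted p = 0.00093).

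Tnc (chr4:63959785-64047015), the gene of tenascin-C, a matrix protein laid down in wounds, was low in control livers. FPKM was 0.654, 0.577, and 0.463 in mice 2, 5, and 9, and 0.0321 to 0.161 with a median of 0.136 in control mice. Every treated mouse was above every control mouse, and control mouse 12 stood below the other 5. The smallest whole numbers of reads that fit these values were 62 to 100 per anti-CD40 mouse and 4 to 23 per control mouse. The mean was 4.66-fold higher, and the log2 fold change of 1.61 ± 0.25 (SE, limma adjusted p = 0.000455) understates that ratio because 0.1 is added to low values.

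Lox (chr18:52516060-52529867), the gene of lysyl oxidase, had the highest log2 fold change of the 10 genes on log2(FPKM + 0.1). This rank depends on the pseudocount. With a pseudocount of 1, Lox was at 1.19, below Col1a1, which was at 1.49 or more under every alternative. FPKM was 2.54, 1.78, and 1.83 in mice 2, 5, and 9. Control mice ranged from 0.130 to 0.680 with a median of 0.251. Control mice 4 and 7 (0.680 and 0.620) were set apart from mice 3, 11, and 12 (0.130 to 0.159), and all 6 lay below the treated mice. Reads, found in the same way, numbered 152 to 241 per anti-CD40 mouse and 10 to 60 per control mouse. The mean was 5.96-fold higher and the log2 fold change 2.45 ± 0.43 (SE, limma adjusted p = 0.0010).

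Pdgfrb (chr18:61045150-61085067) encodes PDGF receptor beta, which marks stellate cells and pericytes. FPKM was 3.08, 2.69, and 2.22 in mice 2, 5, and 9, and 0.792 to 1.78 with a median of 1.16 in control mice, with no overlap. The mean was 2.18-fold higher and the log2 fold change 1.099 ± 0.24 (SE, limma adjusted p = 0.0040).

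The contractile and filament genes were not called. Acta2 (chr19:34240336-34255373), the gene of alpha smooth muscle actin and the standard marker of a myofibroblast, had FPKM of 3.33, 2.09, and 3.07 in mice 2, 5, and 9. The control values were 1.68 at the lowest, 3.74 at the median, and 10.9 at the highest. The treated values all lay inside the control range, which spanned 6.48-fold. The log2 fold change was -0.48 ± 0.51 (SE), with a 95% interval from -1.61 to 0.66 (limma adjusted p = 0.476, exact permutation p = 0.50). The interval holds both a fall and a rise of moderate size. Without control mice 4 and 7, a choice made after seeing the values, the difference was 0.06 (limma adjusted p = 0.902), so even its sign rested on those mice.

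Des (chr1:75360292-75375015), the gene of desmin, an intermediate filament of muscle and stellate cells, had FPKM of 1.17, 1.53, and 0.576 in mice 2, 5, and 9. Control mice ranged from 0.481 to 0.930 with a median of 0.571. Mice 2 and 5 lay above the control range, whereas mouse 9 lay within it. The log2 fold change was 0.58 ± 0.29 (SE), with a 95% interval from -0.08 to 1.23 (limma adjusted p = 0.137, exact permutation p = 0.0952). Without anti-CD40 mouse 9 it was 0.94 (limma adjusted p = 0.0226). The deposited position of Des extends 6436 bases past its GENCODE M21 end and overlaps another listed gene, Gm15179, so the Des value could include reads of its neighbour.

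Tgfb1 (chr7:25687002-25704996), the gene of the TGF-beta 1 ligand, was barely detected. Anti-CD40 mice 2 and 5 had FPKM of 0.0716 and 0.0762, and mouse 9 was listed at 0.01, the lowest value in the table. Control mice 4 and 12 had 0.0256 and 0.0294, and the other 4 were listed at 0.01. The smallest whole numbers of reads that fit these values were 6 over the 3 anti-CD40 mice and 2 over the 6 control mice, and the exact permutation p was 0.167. A difference in Tgfb1 was not detectable in these data, and the deposited position ends 81 bases before the annotated 3′ end, where this method reads.

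**Figure D2:**
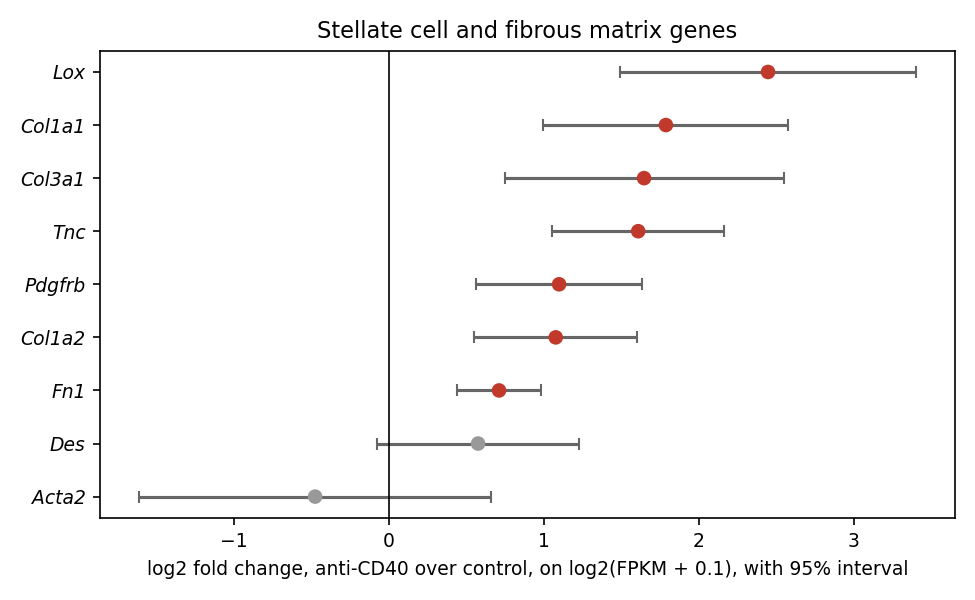
The log2 fold change, anti-CD40 over control, of the 9 tested genes, with 95% intervals from limma. Red points were called at an adjusted p under 0.05 and grey points were not. Intervals of the 7 called genes lie above 0, and those of Des and Acta2 cross 0, with Acta2 the widest, from -1.61 to 0.66.

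Control mice 4 and 7 were the 2 highest of the 6 control mice for 7 of the 10 genes, namely Col1a1, Col1a2, Col3a1, Tnc, Lox, Acta2, and Pdgfrb. Over all genes tested, the same was true of 16.7%. Mouse 4 was among the 2 highest for 8 of the 10 genes and mouse 7 for 9. The mean log2 level of the 9 tested genes, relative to the control mean, was 0.547 in mouse 4 and 0.603 in mouse 7, and -0.494 to -0.0422 in the other control mice. The same 2 mice held the highest levels of mesothelial markers, the genes of the cells that cover the liver surface, at 1.24 and 0.901, against -0.982 to 0.0175 in the others. Their portal fibroblast markers were also highest, at 0.610 and 0.804, against -0.537 to -0.111. The pattern was not particular to those lists, since mice 4 and 7 were also the 2 highest control mice for platelet (0.873 and 0.441), monocyte and macrophage (0.506 and 0.315), and smooth muscle markers (0.371 and 0.887). The smooth muscle list includes Acta2 and Des, so it partly repeats values of the 10 genes. In the anti-CD40 mice, the mesothelial markers were at -0.183 to 0.311, inside the control range, while the 9 genes were at 1.03 to 1.35, above it. With the mean log2 level of the mesothelial markers other than Krt19 as a covariate, chosen after seeing the data, the same 7 genes were called higher, with log2 fold changes of 1.86 for Col1a1, 2.52 for Lox, and 0.71 for Fn1, and with mice 4 and 7 left out 7 were called, with values of 2.20, 2.92, and 0.74.

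**Figure D3:**
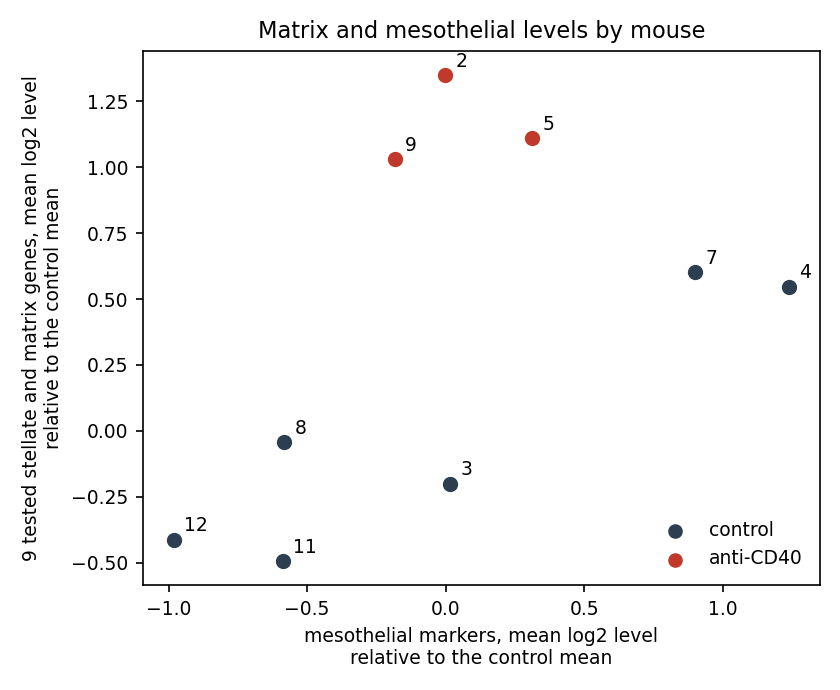
Each point is 1 mouse, labelled with its number. The horizontal axis is the mean log2 level of 7 mesothelial markers and the vertical axis that of the 9 tested stellate and matrix genes, both relative to the mean of the control mice. Control mice 4 and 7 lie to the right of the other control mice and above them, and the 3 anti-CD40 mice lie above all control mice at mesothelial levels of -0.183 to 0.311.

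Among markers of stellate cells, more were lower than higher. Of 25 stellate cell markers tested, 11 were lower and 2 higher with anti-CD40, with a median log2 fold change of -0.41, beside the 21.7% lower and 23.5% higher over all genes. Lrat, which encodes the enzyme that makes retinyl esters, had FPKM of 1.24, 1.26, and 1.92 in mice 2, 5, and 9 and 2.37 to 5.46 with a median of 3.74 in control mice, without overlap. Its log2 fold change was -1.23 ± 0.27 (SE, limma adjusted p = 0.0040), and its position is shared with another listed gene. Reln, the gene of the secreted glycoprotein reelin, averaged 4.11 ± 0.157 (SD, n = 6) in control and 0.918 ± 0.139 (SD, n = 3) in anti-CD40 mice. The log2 fold change was -2.06 ± 0.12 (SE, limma adjusted p = 1.2e-06). Colec11, the gene of a secreted collectin, averaged 62.8 ± 9.02 (SD, n = 6) and 8.19 ± 0.702 (SD, n = 3), with a difference of -2.92 ± 0.13 on the log2 scale (SE, limma adjusted p = 2.04e-07).

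Other markers of the same cell were not called, or were higher. Cygb, the gene of cytoglobin, a globin of stellate cells, was at 15.4 ± 0.905 (SD, n = 3) against 13.2 ± 2.59 (SD, n = 6), a log2 fold change of 0.25 ± 0.17 (SE, limma adjusted p = 0.257). Cygb was called higher with the acute-phase genes Saa1, Saa2, and Saa3 left out and the rest rescaled (0.61, limma adjusted p = 0.0125) and without control mice 4 and 7 (0.40, limma adjusted p = 0.0369). Ngfr, the gene of the p75 neurotrophin receptor, was at 1.20 ± 0.0773 (SD, n = 3) against 1.24 ± 0.136 (SD, n = 6), with a log2 fold change of -0.04 ± 0.14 (SE, limma adjusted p = 0.844), but was called lower with quantile normalization (-0.38, limma adjusted p = 0.0336). Hgf, the gene of hepatocyte growth factor, was higher, at 2.24 ± 0.398 (SD, n = 3) against 1.27 ± 0.231 (SD, n = 6), a log2 fold change of 0.78 ± 0.18 (SE, limma adjusted p = 0.0056). Gfap, an intermediate filament gene used to mark resting stellate cells, was at 0.0211 to 0.220 in control mice, was listed at 0.01 in all 3 anti-CD40 mice, and had too low a mean to be tested. Counts over this list are 10 to 12 lower and 2 to 3 higher under every alternative setting.

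**Figure D4:**
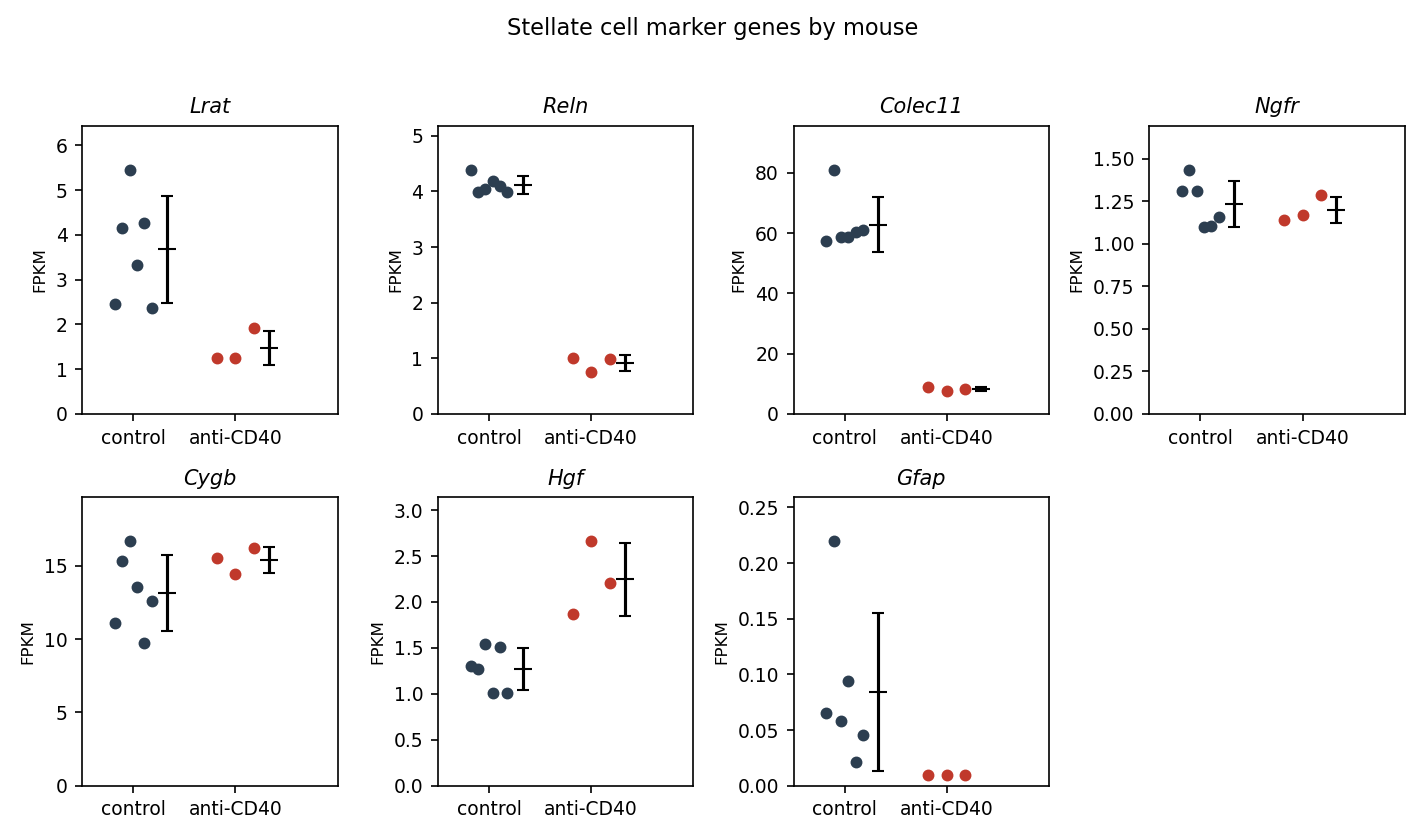
FPKM of 7 stellate cell marker genes in each of 6 control mice (dark points) and 3 anti-CD40 mice (red points), with the mean ± SD in black except where a mouse is at the lowest value of the table. Every vertical axis starts at 0. Lrat, Reln, and Colec11 are lower in all 3 anti-CD40 mice, Hgf is higher in all 3, and Ngfr and Cygb overlap.

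The other genes of the matrix and of its pathways were followed in 6 lists of 172 genes in all, of which 134 were tested. Of these 45 were higher (33.6%, beside 23.5% of all genes) and 16 lower (11.9%, beside 21.7%), with a median log2 fold change of 0.16. Collagens other than Col1a1, Col1a2, and Col3a1 numbered 40, of which 18 were tested. Of the 18, 8 were higher (44.4%) and 1 was lower (5.56%), with a median of 0.54. With quantile normalization 6 were higher and 3 lower, with a median of 0.147. With the Saa genes left out 10 were higher and 1 lower, with a median of 0.861. The list still holds fibrillar collagens, and Col5a1, Col5a2, Col5a3, and Col27a1 were among its risers. The 2 chains of the main basement membrane collagen rose most, Col4a1 with means of 3.07 ± 0.367 (SD, n = 6) in control and 15.6 ± 1.60 (SD, n = 3) in treated mice and a difference of 2.31 (limma adjusted p = 8.9e-07), and Col4a2 by 1.70 (limma adjusted p = 0.00019). Col14a1, the gene of a collagen found on the surface of fibrils, fell by 1.22 on the log2 scale (limma adjusted p = 0.00012). Another 22 of the 40 collagens were below the filter.

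Among genes of collagen processing and cross-linking, 11 of 23 tested were higher (47.8%, beside 23.5% of all genes) and 1 was lower (4.35%, beside 21.7%). Another 11 were not called, and the median log2 fold change was 0.64. The count of higher genes was 8 without anti-CD40 mouse 9 and 9 without mouse 2. It was 7 of 17 at a mean FPKM of at least 1 and 16 with the Saa genes left out. Loxl2 and Loxl4, which encode relatives of lysyl oxidase, had log2 fold changes of 1.88 (limma adjusted p = 4.4e-05) and 1.80 (limma adjusted p = 0.010), although Loxl2 shares its position with another listed gene. Pcolce2, the gene of an enhancer of procollagen C-terminal processing, fell by 2.76 (limma adjusted p = 5.5e-06).

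Of 40 matrix glycoproteins and proteoglycans tested, 7 were higher (17.5%) and 9 lower (22.5%), shares near or under those of all genes (23.5% and 21.7%), with a median of -0.23. The count of lower genes was 15 with quantile normalization and 5 with the Saa genes left out, and it was 6 without any 1 of the 3 anti-CD40 mice. Vcan, the gene of the large proteoglycan versican, was near the lowest values in control mice, 0.0867 ± 0.0493 (SD, n = 6), and at 6.30 ± 0.839 (SD, n = 3) in anti-CD40 mice, a difference of 5.13 on the log2 scale (limma adjusted p = 3.0e-07). Spp1, the gene of osteopontin, rose by 2.39 (limma adjusted p = 0.00085). Fbln5, the gene of an elastic fiber protein, fell by 1.89 (limma adjusted p = 0.00093), and Ecm1, also listed as a stellate marker, fell by 2.08 (limma adjusted p = 5.5e-05), with its position shared with another listed gene.

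In the TGF-beta pathway, 8 of 30 tested genes were higher (26.7%, beside 23.5% of all genes) and 2 lower (6.67%, beside 21.7%). The median was -0.05, close to that of all genes. With quantile normalization 8 were higher and 8 lower, and with the Saa genes left out 13 were higher and 1 lower. Nrros, which encodes a myeloid protein that tethers latent TGF-beta, rose by 2.06 on the log2 scale (limma adjusted p = 2.6e-06). Ltbp4, the gene of a latent TGF-beta binding protein, fell by 2.75 (limma adjusted p = 7.7e-07). Lrrc32, the gene of another tether of latent TGF-beta, fell by 0.76 (limma adjusted p = 0.024) and by 0.43 without anti-CD40 mouse 2 (limma adjusted p = 0.115). The Lrrc32 call was also lost without the filter on mean FPKM, with the Saa genes left out, and without control mice 4 and 7.

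Of the other PDGF ligands and receptors, 3 of 4 tested genes were higher, beside 23.5% of all genes. By limma, 0 were lower (0 also at an unadjusted p under 0.05), beside 21.7% of all genes, and the median was 0.78. The count of higher genes was 2 without anti-CD40 mouse 2, 5, or 9 and without control mouse 8 or 11. It was also 2 with quantile normalization or without the filter on mean FPKM, and 1 at a mean FPKM of at least 1. The ligand genes Pdgfa and Pdgfb had log2 fold changes of 0.92 (limma adjusted p = 0.0012) and 2.03 (limma adjusted p = 0.010), and Pdgfb shares its position with another listed gene.

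The contractile and cytoskeletal list was divided, with 8 of 19 tested genes higher (42.1%, beside 23.5% of all genes). Another 3 were lower (15.8%, beside 21.7%), and the median was 0.48. The count of lower genes was 1 without anti-CD40 mouse 5 or 9 or control mouse 8, and 1 with the Saa genes left out. With quantile normalization it was 4. The risers of the list were led by Timp1, which is neither contractile nor cytoskeletal but encodes an inhibitor of matrix metalloproteinases. Timp1 was at 1.63 ± 1.96 (SD, n = 6) in control and 42.9 ± 7.82 (SD, n = 3) in anti-CD40 mice. The difference was 5.35 on the log2 scale (limma adjusted p = 0.00047), and the Timp1 position is shared with other listed genes. Vim, the gene of the filament vimentin, which blood-derived cells also express, rose by 2.72 (limma adjusted p = 0.00011). The muscle genes Myl9, a myosin light chain, and Lmod1, a leiomodin, fell by 1.41 (limma adjusted p = 0.0094) and 1.03 (limma adjusted p = 0.032). The Lmod1 call was lost without anti-CD40 mouse 2, 5, or 9 or control mouse 8, with limma adjusted p of 0.0796, 0.0678, 0.104, and 0.0562. That call was also lost with a pseudocount of 1, without the filter on mean FPKM, with the Saa genes left out, and without control mice 4 and 7.

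**Figure D5:**
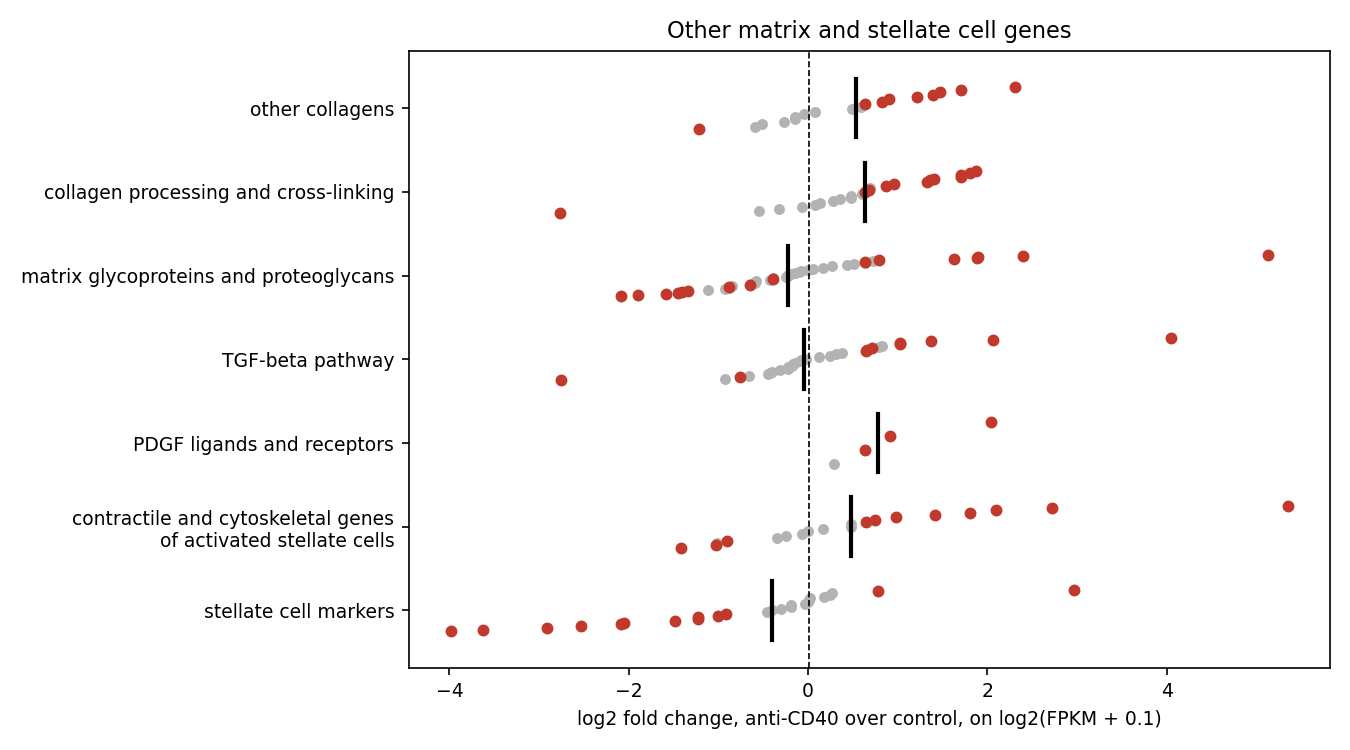
Log2 fold change, anti-CD40 over control, of every tested gene in the 6 wider lists and of the stellate cell markers. Red points were called at an adjusted p under 0.05 and grey points were not, black bars give each list's median, and the dashed line is the median of all genes tested (0.0056). The collagen lists lie mostly to the right of the line, and the stellate markers to its left, with a median of -0.41.

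Markers of other cell types were counted in the same way, beside the 23.5% higher and 21.7% lower of all genes. Of 12 monocyte and macrophage markers, 9 were higher and 1 lower, and their summed FPKM was 331 to 449 in anti-CD40 mice against 47.3 to 82.5 in control mice. All 7 Kupffer cell markers were lower (41.1 to 51.1 against 288 to 461), and 8 of 10 hepatocyte markers were lower (9930 to 12200 against 30500 to 53600). Sinusoidal endothelial markers had 3 higher and 4 lower of 10 (121 to 127 against 122 to 156), platelet markers 3 higher and 0 lower of 8 (23.6 to 30.4 against 11.7 to 43.4), and cholangiocyte markers 2 higher and 0 lower of 7 (69.7 to 101 against 11.2 to 20.7). Each sum rests most on the genes of its list with the highest FPKM. The cholangiocyte list shares Spp1 with the matrix glycoproteins (15.6 to 31.8 against 2.37 to 8.28), and 5 of its 7 tested genes were not called. Portal fibroblast markers had 3 higher and 3 lower of 13 (71.0 to 81.8 against 64.8 to 117), smooth muscle markers 0 higher and 1 lower of 7 (6.18 to 7.88 against 3.94 to 18.7), and mesothelial markers 0 called of 7 (26.6 to 34.0 against 19.8 to 85.4). In limma, the unadjusted p under 0.05 added none to these counts of 0. The platelet count was 0 higher without anti-CD40 mouse 2, 1 without mouse 9, and 0 with quantile normalization. The portal fibroblast count was 2 higher and 1 lower without mouse 2, and 1 higher and 0 lower without mouse 5 or mouse 9. Pancreas acinar markers were called in 1 of 9 and reached a summed FPKM of 972 in mouse 5 (27.9 to 972 against 70.7 to 190), and without mouse 5 the count of stellate and matrix genes called higher was 7. The part of these cells in the values of Fn1, Tnc, Vcan, Spp1, Timp1, and Vim was not tested.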

How the data were processed

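The authors made QuantSeq 3′ libraries from liver RNA of 9 mice, sequenced them on an Illumina instrument, and aligned them with STAR to mm10. They deposited 1 FPKM value per gene and mouse, made with Cufflinks and CuffDiff, with a lowest value of 0.01, and 15 genes (Sparc among those listed) had a failed estimate and were left out. The annotation is not given in the sources used here. Mice were grouped by the sample labels. Their numbers only name them.

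The deposited FPKM were tested as log2(FPKM + 0.1) with limma 3.58.1 in R 4.3.3 (lmFit, eBayes with a trend) in genes averaging 0.1 FPKM or more, a step tested on simulated data. Fold changes on this scale understate changes of low genes. Named were all 10 genes, the 2 largest increases and 2 largest decreases among called genes of each of 6 wider lists, and 7 stellate markers fixed by name. A gene that this rule takes is not reported here. The 10 genes, the 6 wider lists, and the 11 lists of cell type markers were compiled from general knowledge with earlier results of these data known, so their counts are not independent evidence. Exact permutation tests used scipy 1.17.1. RefSeq promoters were searched on both strands.

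Read totals were not used here, so absolute depth is unknown. The smallest whole numbers of reads that fit the FPKM of all 9 mice within 0.1 read were found for 9 of the 10 genes (not Fn1), but for only 68.1% of 3241 low genes, so no count test was run. Relative depth was 0.870 to 1.13 of the mean. Replicates are separate mice. Alternatives were a pseudocount of 1 or 0.01, leaving the filter out or raising it to 1 FPKM, quantile and median of ratios normalization, leaving out Saa1, Saa2, and Saa3 with rescaling, eBayes without the trend or robust, array weights, failed estimates as missing, and leaving out each mouse. A mesothelial covariate and leaving out control mice 4 and 7 together were chosen after seeing the data.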

Additional observations from a re-analysis of the deposited data

Results flagged for a closer look

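Among 37 genes examined over the 6 control mice, 2 had a mouse that stood apart, and chance gives about 1 in 20. For Tnc, the lowest control mouse, mouse 12 (FPKM 0.0321, 4 reads), lay apart by 0.716 of the control range on the log2 scale. For Colec11, the highest control mouse, mouse 4 (FPKM 81.0), lay apart by 0.817 of that range. Groups of 3 were not examined.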

How the results depend on the processing

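The count of stellate and matrix genes called higher was 7 and stayed between 5 and 8 under all alternatives. It was 5 with a mean FPKM of at least 1, where Tnc and Lox are not tested, and 8 with the Saa genes left out and rescaled, where Des was called (0.90, limma adjusted p = 0.0237). No alternative called any of the 10 lower. Leaving out 1 mouse at a time gave 7 to 8 higher and 0 lower, 39 to 53 higher and 11 to 21 lower in the 6 wider lists, and 4814 to 6830 genes called in all (6230 with all mice). The 16 lower genes of the wider lists became 32 with quantile normalization, 9 with the Saa genes left out and rescaled, and 25 with the mesothelial covariate. Leaving out the Saa genes moved the median of all genes to 0.35 and the split of called genes from 3240 higher and 2990 lower to 5635 and 1647, or from 52.0% to 77.4% higher. The log2 fold changes then were 2.15 for Col1a1, 1.44 for Col1a2, and 2.01 for Col3a1, and relative to the shifted median 1.80, 1.09, and 1.66, close to the values without the rescaling. Ngfr, which was not called, was called lower with quantile normalization (-0.38), changed sign with that rescaling (0.30) and with control mice 4 and 7 left out (0.035), and ranged from -0.086 to 0.0040 with 1 mouse left out (above 0 without control mouse 4). Acta2 changed sign without both mice (0.056). Tgfb1 depended on the pseudocount, at 0.05 with 1 and 1.08 with 0.01. With a pseudocount of 1, Lox fell to 1.19 and Tnc to 0.48, and both were still called. The causes were not tested. No paired analysis was possible because the mouse numbers of the 2 groups do not overlap. Low values limit Tgfb1, Tnc, and Lox.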
